A study of Mus musculus with 6 samples.

Results

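Neurons release transmitter by fusing synaptic vesicles with the presynaptic membrane. Synapsins hold vesicles in a reserve pool, active zone proteins dock and prime them beside calcium channels, and a complex of SNARE proteins (synaptobrevin, SNAP25 and syntaxin) drives fusion when synaptotagmin binds calcium. The used SNARE complexes are then pulled apart by the ATPase NSF, and the vesicle membrane is retrieved by endocytosis. Transcripts of 32 genes of this machinery were compared between the cortex of control and microglia-depleted mice. The genes were taken by symbol from a table of 23366 genes, and all 32 were found.

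RNA was sequenced from brain cortex of 3 control mice (A1, A2 and A3) and 3 microglia-depleted mice (A4, A5 and A6), all C57BL/6. In the study this tissue is called frontal cortical, while the cortical neuron loss is reported in layer IV of the somatosensory cortex. The depleted mice were CX3CR1-CreERT2+/- iDTR+/- and were taken at day 10 post depletion. Their controls were CX3CR1-CreERT2+/- littermates without iDTR, the Cre-dependent diphtheria toxin receptor, so 1 allele of the Cre driver was shared by all 6 mice. Both groups received tamoxifen (TAM), and diphtheria toxin (DT) kills the cells in which CX3CR1-driven Cre has switched on iDTR. The study describes a wait between TAM and DT so that peripheral monocytes are replaced by untargeted cells. It reports loss of nearly all microglia. Among the organs it examined outside the brain, it reports fewer CX3CR1+ cells only in the small intestine. The sources used here do not state whether the controls of this experiment also received DT, nor the age of the mice. The study describes microglia as repopulating the brain by this time, so the depleted mice were not without microglia. The values are FPKM, fragments scaled to the length of the transcript and to the mapped fragments of the library, which allow levels of different genes to be set side by side. Values of single genes below are FPKM, and fold changes are differences of log2(FPKM + 1), depleted minus control, fitted with limma. P-values of limma set each group difference against the spread between these mice, moderated with the spread of all other genes tested.

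The depth behind the values was estimated at 14.6 M, 20.5 M and 18.3 M fragments for the control mice A1, A2 and A3. It was 13.7 M for A4, 3.49 M for A5 and 11.2 M for A6. The value of A5 rests on 97 low FPKM values, and 6.99 M would also place them on whole fragments, but only 1.25% of those on a whole number would then be odd, so the smaller value was kept. With the longest annotated transcript taken as the length of each gene, the smallest number of fragments behind any value of the 32 genes was about 80.7, for Syn3 in A5. A shorter length would give fewer fragments. Mouse A4 stood apart from the other 5. It carried Y-linked transcripts (4 genes summing to 5.56 FPKM, at most 0.16 in any other mouse), so sex and this mouse cannot be told apart. Its array weight in limma, which is higher for a mouse closer to its group, was 0.304 where A1 had 2.44. The main fit did not use these weights. The pan-neuronal markers summed to between 2792 and 2847 FPKM in the control mice and between 2687 and 3050 FPKM in the depleted mice, with all 12 detected in every mouse. Microglial markers summed to between 109 and 133 FPKM and between 116 and 151 FPKM in the same order.

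Promoter sequences are shown for 4 genes: Syn1, the textbook example of a neuron-restricted release gene, Unc13a, whose value in A4 lay furthest below the control mean, and Stx1a and Amph, which were the genes of the set with an unadjusted p under 0.05. Each is the 250 bases before a transcription start in RefSeq (GRCm38.p6), written 5′ to 3′ along the gene. For Syn1 and Amph this start lies inside the gene as GENCODE places it (chrX:20860511-20921004 and chr13:18948205-19150921). Part of each of these 2 windows therefore lies within the annotated gene. Capitals mark matches on either strand to 3 short motifs, the GC box GGGCGG bound by Sp1 factors, the core TGACG of the cAMP response element, and TTCAGCACC, the left part of RE1, the element bound by the repressor REST in cells other than neurons. Syn1 lies at chrX:20920919-20921168 (minus strand), Unc13a at chr8:71671758-71672007 (minus strand), Stx1a at chr5:135023232-135023481 (plus strand) and Amph at chr13:18948101-18948350 (plus strand).
Syn1: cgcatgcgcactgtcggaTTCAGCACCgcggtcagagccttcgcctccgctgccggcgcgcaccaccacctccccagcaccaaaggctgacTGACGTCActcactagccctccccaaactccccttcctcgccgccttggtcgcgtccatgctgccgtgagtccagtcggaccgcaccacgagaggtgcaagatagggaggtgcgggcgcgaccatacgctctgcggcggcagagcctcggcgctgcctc
Unc13a: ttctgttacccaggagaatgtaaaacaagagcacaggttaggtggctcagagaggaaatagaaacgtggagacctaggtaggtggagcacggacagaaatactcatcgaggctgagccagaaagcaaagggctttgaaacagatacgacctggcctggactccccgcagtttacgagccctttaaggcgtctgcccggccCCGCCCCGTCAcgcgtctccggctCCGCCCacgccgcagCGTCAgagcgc
Stx1a: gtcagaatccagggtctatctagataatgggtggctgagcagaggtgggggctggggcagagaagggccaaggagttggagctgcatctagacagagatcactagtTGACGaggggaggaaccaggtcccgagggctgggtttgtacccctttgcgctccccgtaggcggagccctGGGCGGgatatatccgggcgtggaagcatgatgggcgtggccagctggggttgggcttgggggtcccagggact
Amph: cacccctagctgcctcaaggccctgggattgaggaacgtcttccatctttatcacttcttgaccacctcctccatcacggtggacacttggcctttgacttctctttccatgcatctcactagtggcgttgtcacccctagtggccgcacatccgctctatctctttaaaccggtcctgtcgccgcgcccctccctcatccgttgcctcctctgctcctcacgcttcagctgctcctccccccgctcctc

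The left part of RE1 was found 232 bases before the start of Syn1 and in no other matched promoter of the 32 genes, against 99 of all 32851 RefSeq promoters (0.301%). Of the 32 genes, 25 had entries in the table, with 32 promoters. Syn3, Syt4, Syt5, Syt7, Vamp2, Snap25 and Rims2 were not matched. The GC box was present in 18 of the 32 promoters (56.2%), of 17 genes, and in 32.7% of all promoters. The cAMP core was present in 6 (18.8%), those of Syn1, Syt2, Stx1a, Rab3a, Rab3b and Unc13a, and in 17.8% of all promoters. TATAAA was present in 3 (9.38%), of Rab3b and Sv2b, and in 12.4% of all. The Amph promoter held no match to the 3 marked motifs in this window. A match is a description of the letters and not evidence of binding.

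The release genes were among the most abundant transcripts of the cortex. Mean control levels ran from 3.51 FPKM for Sv2c to 1124 FPKM for Snap25, the gene with rank 13 of the whole table, and their median was 88.6 FPKM against 9.27 FPKM for all 14385 genes tested. Above 100 FPKM stood 15 of the 32, and 18 were among the 1000 highest genes. Snap25, Syp (synaptophysin), Vamp2 (synaptobrevin 2) and Rab3a headed the order, and the ranges of the control mice did not overlap between these neighbours. Among the 31 neighbouring pairs of the whole order, 10 had overlapping control ranges, among them Cplx1 and Syt1, Syn1 and Syt11, and Napb, Sv2a and Stx1a in turn. At the bottom were Syt2, Syn3 and Sv2c, the only genes of the set under 10 FPKM.

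**Figure D1:**
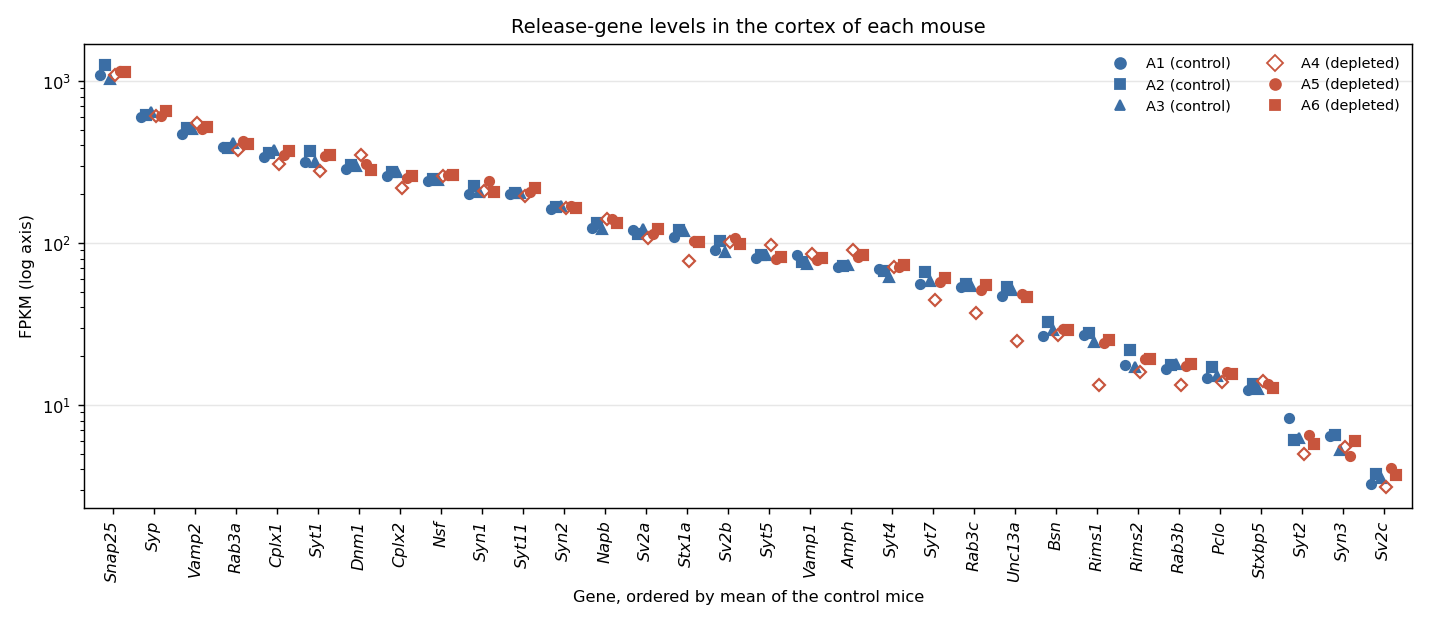
FPKM (log axis) of the 32 release genes in each control mouse (blue) and each depleted mouse (red, with A4 as open diamonds), ordered by the control mean. The order of the genes, from 1124 FPKM for Snap25 to 3.51 FPKM for Sv2c, spans far more than any difference between mice, and A4 lies below the other mice at Unc13a, Rims1, Rab3c and Stx1a.

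None of the 32 genes passed the threshold of an adjusted p under 0.1 in either direction (limma, Benjamini-Hochberg over 14385 genes). Over all genes tested, 4 passed as higher (0.0278%) and 0 as lower (0.0%). The study's own test on counts, at the same threshold, called more genes as different, in both directions. At an unadjusted p under 0.05 in limma, Amph was higher and Stx1a was lower, 1 gene of 32 (3.12%) in each direction, where 4.79% of all genes were higher and 5.74% lower. Without A4, these were again Amph and Stx1a, against 5.95% of 14308 genes higher and 7.2% lower. The share of the set that passed was thus no greater than the background.

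The groups did not overlap, with every depleted mouse above every control mouse, in 4 genes (12.5%), Syt4, Nsf, Napb and Amph, where 8.21% of all genes had this order. They did not overlap in the other direction in 1 gene (3.12%), Stx1a, where 9.38% of all genes did. On average, 17 genes were higher and 15 lower in depleted mice. The median log2 fold change of the set was 0.0059 and that of all genes tested was -0.0085, while the median size without sign was 0.069 for the set and 0.118 for all genes. Differences of less than 0.1 on the log2 scale were measured in 19 of the 32 genes. The 95% interval of the difference lay within 0.5 of 0 on this scale in 27 genes and within 0.3 in 19, which bounds what these 6 mice could have missed. In bulk tissue, fewer cells of a type and less RNA per cell cannot be told apart.

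**Figure D2:**
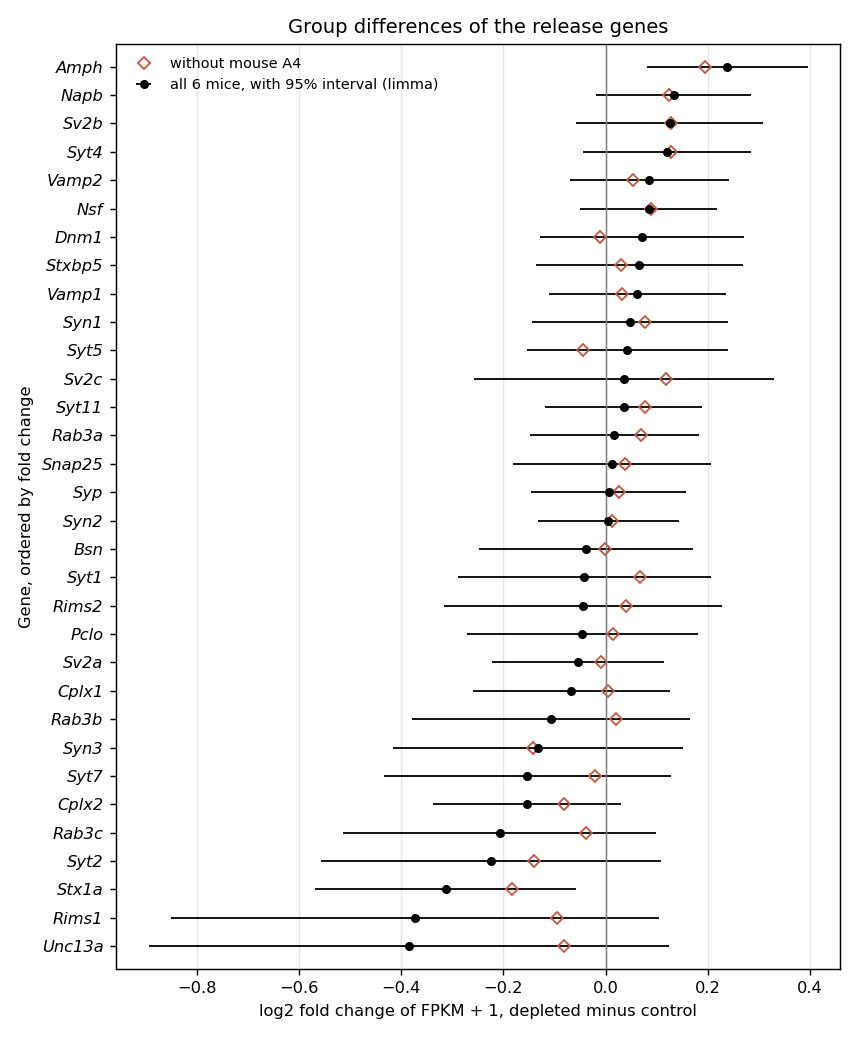
Log2 fold change of FPKM + 1 (depleted minus control) of the 32 genes, ordered by size, with 95% intervals from limma (black, 6 mice) and the value without A4 (open diamonds). The interval leaves out 0 for Amph and Stx1a, and without A4 the values of Unc13a and Rims1 move from -0.39 and -0.37 to -0.08 and -0.09.

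Synapsins, which tether vesicles to actin, were near-equal in both groups. Syn1 had 201, 225 and 207 FPKM in the control mice and 209, 240 and 206 FPKM in the depleted mice, and the fitted log2 difference was 0.05. Syn3, the least abundant synapsin, had 6.40, 6.50 and 5.27 FPKM in control and 5.51, 4.84 and 5.96 FPKM in depleted mice, which was lower by a fitted -0.13 on the log2 scale (limma adjusted p = 0.727). The ranges overlapped in both. Syn2, between 163 and 170 FPKM in all 6 mice, was the steadiest member of the family, with a log2 fold change of 0.0056.

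Of the vesicle membrane proteins, synaptophysin (Syp), a major protein of the vesicle membrane, had 597, 620 and 643 FPKM in control and 605, 611 and 653 FPKM in depleted mice. The groups shared nearly the same range, and the log2 fold change was 0.0062, with a 95% interval from -0.14 to 0.16. SV2 proteins are transporter-like glycoproteins of the vesicle, and SV2A is the binding site of levetiracetam. Sv2a ran from 107 to 123 FPKM and Sv2b from 87.9 to 107 FPKM over the 6 mice, and Sv2c, which is mostly a gene of the basal ganglia, from 3.12 to 4.07 FPKM. Sv2b was higher by 0.13 on the log2 scale on average with overlapping groups.

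Synaptotagmins bind calcium through their C2 domains, and Syt1 and Syt2 are the fast sensors of synchronous release. Syt1, the highest of the 6 measured here, had 314, 370 and 315 FPKM in control and 277, 346 and 349 FPKM in depleted mice. Only A4 lay outside the control range. Syt2, the sensor of fast-spiking interneurons and of hindbrain synapses, had 8.35, 6.08 and 6.27 FPKM in control and 4.98, 6.51 and 5.73 FPKM in depleted mice, and the fitted log2 difference was -0.22 (limma adjusted p = 0.613) and -0.14 without A4, and A5 lay inside the control range. Syt7, the slow sensor linked to facilitation, had 56.0, 66.2 and 57.9 FPKM in control and 44.6, 57.2 and 60.8 FPKM in depleted mice. Its log2 fold change of -0.15 became -0.02 without A4, and -0.08 without the control mouse A2, which had the highest value.

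Syt4 stood the other way. This synaptotagmin, which lacks calcium binding in its first C2 domain and is known as an activity-induced gene, had 69.4, 67.0 and 61.6 FPKM in control and 71.0, 71.0 and 73.2 FPKM in depleted mice. Every depleted mouse lay above every control mouse, with group means of 66.0 ± 4.04 and 71.7 ± 1.27 (SD, n = 3 each). The log2 fold change was 0.12, with a 95% interval from -0.04 to 0.28 (limma adjusted p = 0.584). Syt5 and Syt11 overlapped between groups, from 79.9 to 96.8 FPKM and from 196 to 220 FPKM.

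Among the SNAREs, Stx1a was lower in every depleted mouse while its partners were not. Stx1a, the syntaxin of the presynaptic membrane (chr5:135023482-135051100 in GRCm38, plus strand), had 109, 121 and 118 FPKM in control and 77.7, 103 and 101 FPKM in depleted mice. Group means were 116 ± 5.99 and 93.8 ± 14.0 FPKM (SD, n = 3 each), and A4 was the lowest of all, at 67.0% of the control mean. The log2 fold change was -0.31 ± 0.11 (SE), with a 95% interval from -0.57 to -0.06, an unadjusted p of 0.022 and an adjusted p of 0.409 in limma, which ran from 0.244 to 0.892 over the alternatives. Without A4 the log2 fold change was -0.18 with an unadjusted p of 0.024. A correction for GC content gave -0.23 and let the groups of Stx1a overlap.

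Snap25, which lends 2 of the 4 helices of the fusion complex, had 1085, 1254 and 1031 FPKM in control and 1091, 1156 and 1144 FPKM in depleted mice. The depleted mice all lay within the control range. Vamp2, the vesicle SNARE, ran from 469 to 512 FPKM in control and from 506 to 549 FPKM in depleted mice, and its relative Vamp1 from 73.8 to 84.2 FPKM and from 78.8 to 85.2 FPKM. Both overlapped between the groups.

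Complexins clamp and then promote fusion by binding the assembled SNARE complex. Cplx1 had 339, 359 and 376 FPKM in control and 309, 347 and 371 FPKM in depleted mice. Cplx2, the complexin of most cortical excitatory neurons, had 258, 276 and 274 FPKM in control and 218, 251 and 258 FPKM in depleted mice, and the fitted log2 difference was -0.15 (limma adjusted p = 0.534) and -0.08 without A4. Neither gene separated the groups completely, since A6 had as much Cplx2 as A1. Stxbp5 (tomosyn), which occupies syntaxin in place of synaptobrevin, ran from 12.3 to 14.1 FPKM over the 6 mice.

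Rab3 proteins are the small GTPases that carry vesicles to the active zone by binding RIM. Rab3a, the main form of the brain, had 392, 387 and 413 FPKM in control and 374, 428 and 406 FPKM in depleted mice, with no difference in order between the groups. Rab3c had 53.7, 55.8 and 54.4 FPKM in control and 37.2, 51.5 and 54.9 FPKM in depleted mice. A4 held 68.0% of the control mean of Rab3c, and A6 lay within the control range. Its log2 fold change of -0.21 (limma adjusted p = 0.612) was -0.04 without A4. Rab3b, at 13.3 FPKM in A4 and from 16.6 to 18.0 FPKM in the other 5 mice, showed the same lone mouse.

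All 5 active zone genes were lower on average in depleted mice, with a median log2 fold change of -0.05, though none separated the groups. Without A4, the median was -0.00052 and Rims2 and Pclo were at 0.04 and 0.01. The control mouse A2 had the highest value of all 5 genes. Without A2, Rims2, Bsn and Pclo were at 0.06, 0.03 and 0.02, while Unc13a and Rims1 were at -0.35 and -0.34. The common sign thus rested on both mice. Unc13a (Munc13-1), the priming factor that opens syntaxin, is the most abundant of the 5. It had 47.1, 53.1 and 51.0 FPKM in control and 24.8, 48.6 and 46.4 FPKM in depleted mice. A4 held 49.2% of the control mean and A5 lay within the control range. The fitted difference was -0.39 ± 0.22 (SE) on the log2 scale, with a 95% interval from -0.89 to 0.12 (limma adjusted p = 0.571), and -0.08 without A4.

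Rims1, the scaffold that links Rab3, Munc13 and calcium channels, showed the same pattern, with 27.1, 27.8 and 24.4 FPKM in control and 13.4, 24.2 and 25.0 FPKM in depleted mice. A4 held 50.6% of the control mean of Rims1, and A6 lay within the control range. The log2 fold change was -0.37 ± 0.21 (SE), with a 95% interval from -0.85 to 0.10 (limma adjusted p = 0.561), and -0.09 without A4. The giant scaffolds Bsn (bassoon) and Pclo (piccolo), and Rims2, differed by no more than 0.05 on the log2 scale. In A4, Bsn had 26.9, Pclo 13.8 and Rims2 16.0 FPKM, so the active zone genes were not lowered to one extent in that mouse.

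Both SNARE recycling genes of the set were higher in every depleted mouse than in any control mouse. Nsf, the ATPase that disassembles spent SNARE complexes, had 242, 250 and 246 FPKM in control and 259, 261 and 263 FPKM in depleted mice. The groups did not overlap, but the log2 fold change was only 0.08, with a 95% interval from -0.05 to 0.22 (limma adjusted p = 0.636). Napb (beta-SNAP), the neuronal adaptor that places Nsf on the complex, had 123, 132 and 122 FPKM in control and 140, 141 and 134 FPKM in depleted mice. Its log2 fold change was 0.13, with a 95% interval from -0.02 to 0.28 (limma adjusted p = 0.518), and the groups again did not overlap. Without A4 the values of Nsf and Napb were 0.09 and 0.12. Their relative Napa (alpha-SNAP), among the further genes described below, had the opposite order of groups. It had 119, 123 and 121 FPKM in control and 96.4, 110 and 111 FPKM in depleted mice. Its log2 fold change was -0.19 (limma adjusted p = 0.440), and -0.13 without A4. Napg, of the same list, was at -0.09 with overlapping groups.

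Amph showed the lowest unadjusted p of the set. Amphiphysin, a BAR-domain protein that brings dynamin to the neck of the budding vesicle (chr13:18948205-19150921 in GRCm38, plus strand), had 71.5, 72.2 and 72.9 FPKM in control and 90.7, 81.5 and 84.0 FPKM in depleted mice. The control mice were nearly equal and every depleted mouse lay above them, with means of 72.2 ± 0.720 and 85.4 ± 4.72 FPKM (SD, n = 3 each). The log2 fold change was 0.24 ± 0.069 (SE), with a 95% interval from 0.08 to 0.40, an unadjusted p of 0.0080 and an adjusted p of 0.378 in limma, which ran from 0.231 to 0.892 over the alternatives. Without A4 it was 0.19 with an unadjusted p of 0.010. By unadjusted p, Amph stood at rank 298 of the 14385 genes. Dnm1, the neuronal dynamin that cuts the vesicle free, had 288, 302 and 300.2 FPKM in control and 350, 309 and 280 FPKM in depleted mice, and its groups overlapped.

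Relative to the control mean, the 32 genes had a median log2 difference of -0.10 in mouse A4 and of 0.03 in both A5 and A6, where the medians over all genes were within 0.01 of 0. A4 held the lowest value of the 6 mice in 16 of the 32 genes, against 28.2% of all genes, and the highest in 6, against 26.9%. The control mice also differed among themselves in these genes. A2 held the highest value of the 6 mice in 12 of the 32 genes, against 12.6% of all genes. It lay above the other control mice in 21 of the 32 (33.4% of all genes), and A1 lay below the other control mice in 21 (32.2%). The spread (SD) of the genes' differences from the control mean was 0.31 in mouse A4, 0.11 in A5 and 0.09 in mouse A6, and over all genes tested 0.41, 0.28 and 0.31. More than 0.25 below the control mean on the log2 scale were 9 of the genes in A4 (20.8% of all genes), 1 in A5 (13.3%) and 0 in A6 (14.5%). Unc13a and Rims1 were at ranks 73 and 101 of 14385 for how far A4 lay below the other 5 mice. Marker lists of several neuron types were low in the same mouse. Relative to the control mean, the median marker of A4 was at -0.22 for cortical excitatory neurons, -0.26 for interneurons, -0.41 for thalamic neurons and -0.55 for striatal projection neurons, where the lowest of these medians was -0.15 in A5 and -0.09 in A6. Lists of other cells were low in A4 too, at -0.41 for oligodendrocyte precursors, -0.24 for oligodendrocytes, -0.20 for astrocytes and -0.49 for choroid plexus. Of these, choroid plexus was also at -0.52 in A5 and -0.51 in A6, and oligodendrocyte precursors at -0.21 in A5 and -0.22 in A6. Oligodendrocytes were at -0.27 in A5 and -0.06 in A6, and astrocytes at -0.01 in A5 and -0.14 in A6. The pan-neuronal list was at -0.10 in A4, and microglia and endothelium were at 0.15 and 0.12. The part of these cells in the values of Unc13a, Rims1, Rab3c and Syt7 was not tested.

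**Figure D3:**
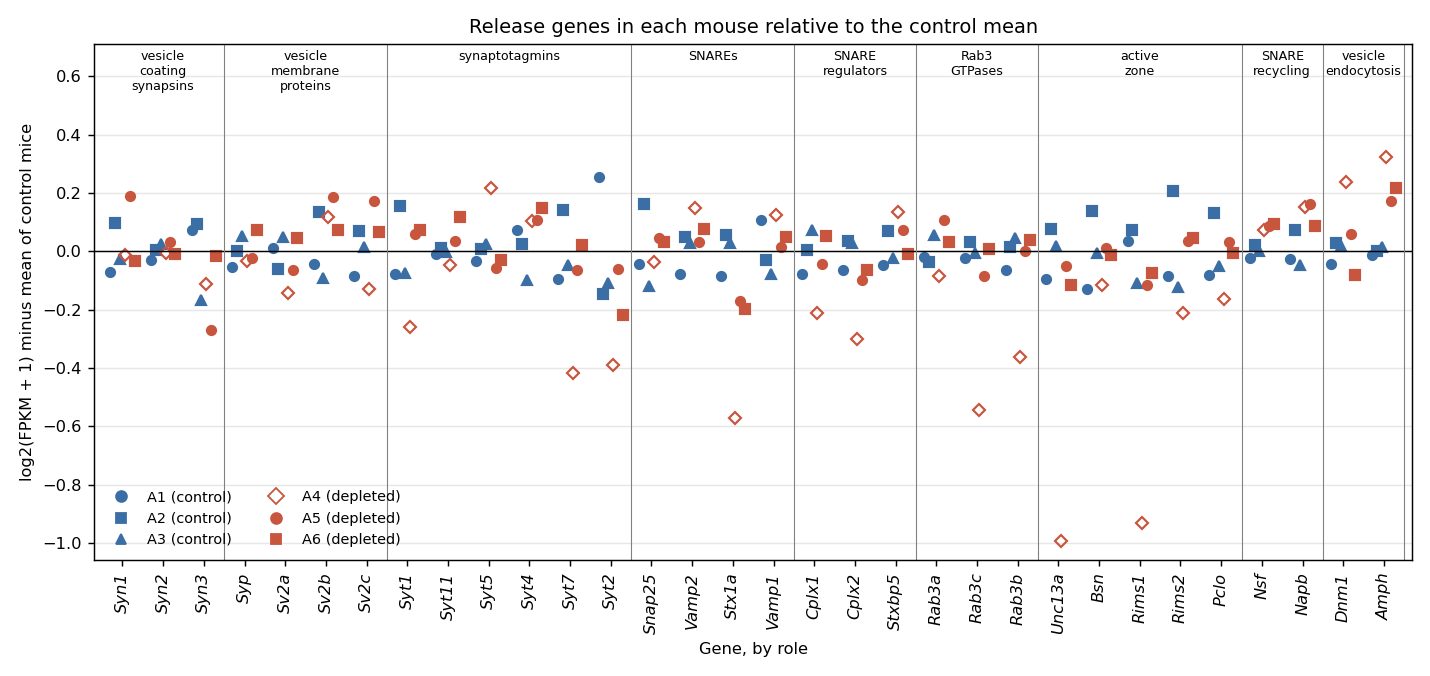
Difference of log2(FPKM + 1) from the mean of the control mice for each mouse and each of the 32 genes, grouped by role (blue, control; red, depleted; open diamonds, A4). A4 is far below the other mice at Unc13a, Rims1, Stx1a, Rab3c, Syt7 and Rab3b, while A5 and A6 stay near 0 at most genes, and all 3 depleted mice are above all controls at Amph, Napb, Nsf and Syt4.

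Related genes that can stand in for each other were compared as ratios within each mouse, which are free of scaling between libraries. Of 10 such ratios, Cplx1 over Cplx2 alone separated the groups. Cplx1 made up 56.8%, 56.5% and 57.8% of the summed complexin FPKM in the control mice and 58.6%, 58.0% and 59.0% in the depleted mice. The log2 ratio was 0.41 ± 0.040 in control and 0.50 ± 0.030 in depleted mice (SD, n = 3 each), a difference of 0.09 with an exact two-sided permutation p of 0.1, the smallest that 3 mice against 3 allow, and 0.5 after adjustment over the 10 ratios. The difference was also 0.09 without A4. Rims2 over Rims1 had the largest difference, 0.35 on the log2 scale (exact permutation p = 0.2), because Rims2 made up 54.5% of the pair in A4 but 44.1% and 43.5% in A5 and A6 and from 39.3% to 43.9% in the control mice. Without A4 this difference was 0.14. Vamp1 over Vamp2 and Pclo over Bsn differed by -0.02 and -0.0083.

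**Figure D4:**
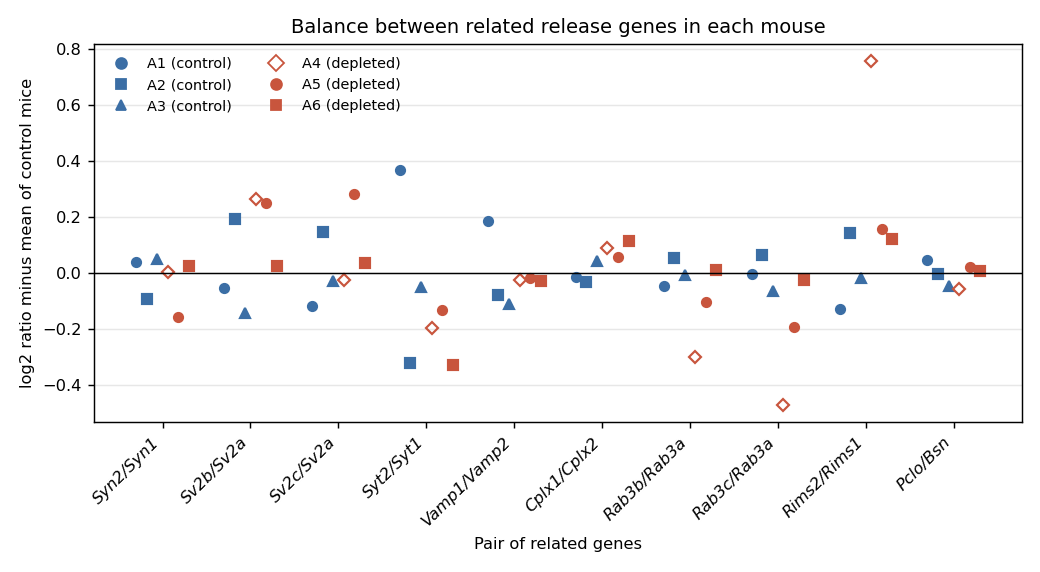
Log2 ratio of FPKM within each mouse for 10 pairs of related release genes, minus the mean ratio of the control mice (blue, control; red, depleted; open diamonds, A4). Only at Cplx1/Cplx2 do all 3 depleted mice lie above all 3 control mice, and A4 alone is far from 0 at Rims2/Rims1 and Rab3c/Rab3a.

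Another 92 genes of the release machinery, in 6 lists, served as a wider view, and 91 of them passed the filter on low values. None passed the adjusted threshold in limma. At an unadjusted p under 0.05, 0 were higher and 6 lower (6.59%), where 4.79% and 5.74% of all genes were. The groups did not overlap in 6 genes that were higher (6.59%) and in 13 that were lower (14.3%), against 8.21% and 9.38% of all genes. The median log2 fold change of the 91 was -0.07.

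The other active zone proteins held 5 of those 13. Of the 15 genes of this list, 12 were lower on average, with a median of -0.09 on the log2 scale, and -0.06 without A4. Rims4, a short RIM that lacks the Rab3-binding part, had the most negative fold change, with 16.3, 20.1 and 16.9 FPKM in control and 10.9, 14.1 and 14.4 FPKM in depleted mice. Every depleted mouse lay below every control mouse, with a log2 fold change of -0.41 (limma adjusted p = 0.379) and of -0.29 without A4. Unc13c, Lin7b, Ppfia1 and Ppfia3 had the same order of groups. Cask, a scaffold kinase of the same list, was at the other end with 0.15. Relative to the control mean, the list had medians of -0.27, -0.02 and -0.05 in A4, A5 and A6.

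In the other lists the extremes were as follows. Sh3gl1 (endophilin A2), a membrane-bending partner of dynamin, had 18.6, 16.9 and 18.4 FPKM in control and 13.5, 13.2 and 14.4 FPKM in depleted mice. Its groups were well apart, with a log2 fold change of -0.37, an unadjusted p of 0.0024 and an adjusted p of 0.370 in limma, and of -0.36 without A4. Synj1, the lipid phosphatase that uncoats endocytic vesicles, was at the upper end of the endocytosis list with 0.15 and overlapping groups. Syngr3, a vesicle protein of the synaptogyrin family, had 100.4, 95.1 and 105 FPKM in control and 69.8, 91.5 and 86.5 FPKM in depleted mice (log2 fold change -0.28, limma adjusted p = 0.421). Its relative Syngr2, which is not restricted to neurons, had 5.15, 5.11 and 4.69 FPKM in control and 8.60, 5.49 and 5.58 FPKM in depleted mice (0.31, limma adjusted p = 0.534). The 2 synaptogyrins separated the groups in opposite orders, neither passed the adjusted threshold, and without A4 their log2 fold changes were -0.17 for Syngr3 and 0.13 for Syngr2.

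Among other SNAREs and their regulators, Vamp7 had the lowest value, -0.27, with a control mouse at 10.7 FPKM inside the depleted range, and Stxbp5l the highest, 0.16 (0.10 without A4), also with overlap. Syt14 and Doc2b bounded the other synaptotagmins and Doc2 genes at 0.21 and -0.16 (-0.03 for Doc2b without A4). Syt14 was above all controls in every depleted mouse, at 1.87, 1.93 and 2.15 FPKM against 1.60, 1.46 and 1.67 FPKM. For transmitter loading, Atp6v1e1, a subunit of the vesicular proton pump, had 286, 289 and 287 FPKM in control and 313, 303 and 315 FPKM in depleted mice (0.11, limma adjusted p = 0.551). Slc17a6 (VGLUT2), the glutamate transporter of thalamic inputs, was the lowest of that list at -0.31 (-0.17 without A4) with overlapping groups.

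**Figure D5:**
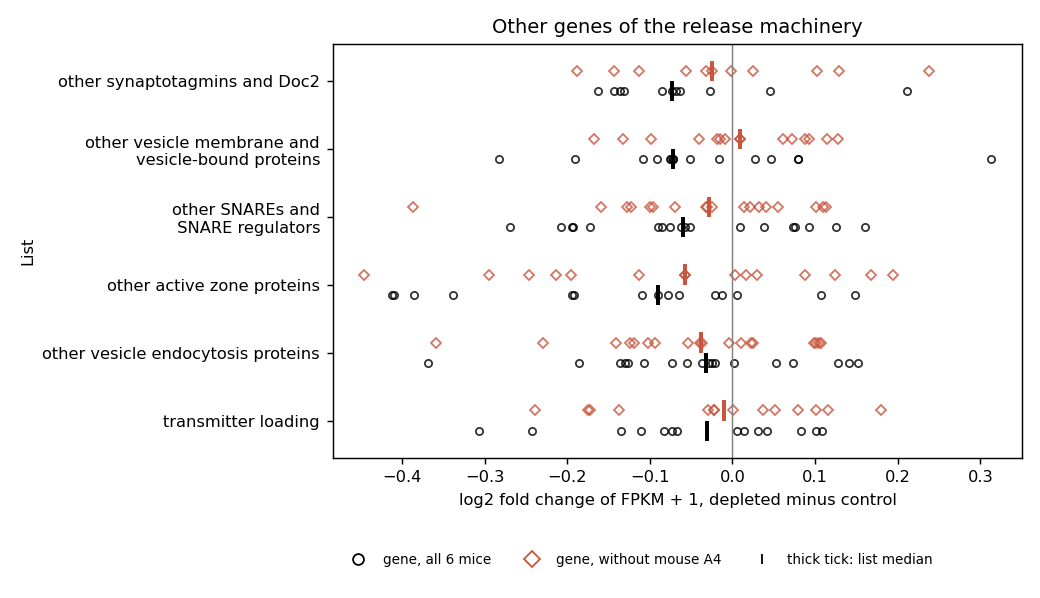
Log2 fold change of FPKM + 1 (depleted minus control) of 91 further genes of the release machinery in 6 lists, with all 6 mice (black circles) and without A4 (red diamonds), and the median of each list as a thick tick. The other active zone proteins have the lowest median, -0.09 with all mice and -0.06 without A4.

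Markers of the cells in the tissue were read beside these values. Cortical excitatory markers summed to between 1843 and 2146 FPKM in control and between 1662 and 1822 FPKM in depleted mice. Nrgn (neurogranin), a calmodulin-binding protein of the postsynaptic side, was the lowest of the 12 at -0.33 with the groups apart, and Neurod2 was the highest at 0.28 with overlap. Oligodendrocyte markers summed to between 3051 and 3314 FPKM in control and between 2680 and 2774 FPKM in depleted mice, with Mag lowest at -0.47 (-0.27 without A4) and Mal highest at -0.01. Choroid plexus markers summed to between 169 and 325 FPKM and between 46.8 and 71.2 FPKM in the same order, with Ttr lowest at -1.91 and Kl highest at -0.23. Endothelial markers were at 67.1 to 75.2 FPKM and 76.2 to 80.4 FPKM. At an unadjusted p under 0.05 in limma, 2 of the 12 excitatory, 3 of the 8 oligodendrocyte and 5 of the 7 tested choroid plexus markers were lower, and 1 of the 8 endothelial markers was higher, where 5.74% of all genes were lower and 4.79% higher. Markers of oligodendrocyte precursors summed to between 95.4 and 109 FPKM in control and between 69.9 and 86.9 FPKM in depleted mice, and 3 of the 6 were lower at an unadjusted p under 0.05, with Olig1 lowest at -0.44 (-0.27 without A4) and Gpr17 highest at -0.08. Astrocyte markers overlapped in sum, from 1180 to 1321 FPKM and from 1186 to 1295 FPKM, and 1 of the 8 was higher and 1 lower by that p. Gfap, the filament gene of reactive astrocytes, was the highest of them, with 88.3, 64.5 and 84.2 FPKM in control and 300.3, 109 and 120.1 FPKM in depleted mice, a log2 difference of 1.00 (0.54 without A4), and Aldh1l1 was the lowest at -0.21. No marker of these lists was at 0 in all 6 mice. The sums of the excitatory, oligodendrocyte, oligodendrocyte precursor, choroid plexus and endothelial lists separated the groups, as Stx1a and Amph did. Nrgn weighed heavily in the excitatory sum, with 842, 987 and 919 FPKM in control and 645, 750 and 788 FPKM in depleted mice. The median log2 fold change of that list was -0.08, and -0.0031 without A4. Sums of the interneuron, thalamic, striatal and hypothalamic lists overlapped between the groups. The part of these cells in the values of Stx1a, Amph, Nsf, Napb and Syt4 was not tested.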

How the data were processed

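Cortex RNA of 3 control and 3 microglia-depleted mice was sequenced from poly(A)-selected paired-end libraries. The authors aligned reads with TopHat and quantified known transcripts with RSEM, and the submitters' processing notes name mm9 and DESeq. Versions and the annotation are not given in the sources used here. The deposited values are FPKM per gene and mouse, scaled between libraries by TMM. Raw counts were not used here, so the count test of the study was not repeated. The labels gave the groups.

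The 14385 of 23366 genes that averaged 0.5 FPKM or more across all mice were tested on log2(FPKM + 1) with limma 3.58.1 in R 4.3.3 (lmFit, eBayes with trend), with Benjamini-Hochberg adjustment over all of them, a threshold of 0.1, and no covariate. A pseudocount of 1 understates changes of low genes. Fragment numbers were estimated from the spacing of low FPKM values in 1958 genes with 1 transcript of 400 to 1500 bases. Ratios were tested by exact two-sided permutation. Gene positions came from GENCODE M21 (GRCm38), not from mm9, and promoters from RefSeq (GRCm38.p6), so positions belong to that build. The scripts were tested on simulated data.

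Named with values in each mouse were the 10 genes of largest absolute fold change, those whose groups did not overlap, both genes of a separated ratio and the most abundant gene of each role. Of each further list, the genes of largest and smallest fold change were named, and other genes were named after their values were seen. The members and lists were chosen with earlier results of these data known. Each mouse was left out in turn, and the fit was repeated with array weights, a correction for GC content, quantile normalization, median-of-ratios scaling, a pseudocount of 0.1, a filter at 1 FPKM or none, no variance trend, and a threshold of 0.05.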

Additional observations from a re-analysis of the deposited data

How the results depend on the processing

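No member passed the adjusted threshold under any of the alternatives, where the lowest adjusted p of limma was 0.231, and 17 of the 32 members kept their sign under all 14 settings. With all mice kept, Rab3a was at -0.055 on the log2 scale under quantile normalization. Array weights gave 0.032 for Syt1, 0.020 for Rims2, 0.0074 for Bsn and 0.0047 for Pclo, and the GC correction gave -0.017 for Syn2, -0.030 for Snap25, 0.047 for Bsn and 0.018 for Cplx1, each of the opposite sign to the reported value. Leaving out 1 mouse at a time, the log2 fold changes that crossed 0 ranged from -0.10 to 0.030 (Bsn), -0.13 to 0.0054 (Cplx1), -0.012 to 0.15 (Dnm1), -0.086 to 0.020 (Pclo), -0.028 to 0.068 (Rab3a), -0.18 to 0.021 (Rab3b), -0.11 to 0.060 (Rims2), -0.047 to 0.094 (Snap25), -0.032 to 0.12 (Sv2c), -0.023 to 0.096 (Syn1), -0.0088 to 0.017 (Syn2), -0.028 to 0.033 (Syp), -0.099 to 0.067 (Syt1), -0.0066 to 0.076 (Syt11) and -0.044 to 0.093 (Syt5). The log2 ratio differences that crossed 0 ranged from -0.030 to 0.016 (Pclo over Bsn), -0.088 to 0.015 (Syn2 over Syn1) and -0.078 to 0.072 (Vamp1 over Vamp2).

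Quantile normalization left 3 members whose groups did not overlap, 2 of them higher. The GC correction also left 3, with 0 lower, and gave 2 higher and 0 lower members at an unadjusted p under 0.05. Leaving out 1 mouse at a time gave 1 to 4 members at that unadjusted p (3.12% to 12.5%, against 5.48% to 14.3% of all genes), 1 to 2 higher and 0 to 3 lower. Groups of 2 against 3 did not overlap in 6 to 11 members (18.8% to 34.4%, against 23.6% to 32.7% of all genes), 4 to 8 higher and 1 to 5 lower, and 3 to 10 of the further release genes (3.3% to 11%) were at an unadjusted p under 0.05. Without A6 there were 4 such members and 10 further genes, and without A3 or A2 there were 0 lower members. The cause was not tested. No paired analysis was possible because the labels number the mice 1 to 6 with no number shared between the groups. A5, with about 3.49 M fragments by an estimate from 97 low values, had the fewest, which limits the lowest genes of the set (Syt2, Syn3 and Sv2c) most.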
